A study of Arabidopsis thaliana with 8 samples.

Results

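The comparison described here set the longitudinal zone 4 of Arabidopsis thaliana roots against longitudinal zone 1, and it used the 4 arrays that the labels give to these zones out of 8 in the series. The choice of arrays rested on the labels alone, and no measured value entered it. The series covers 4 zones with 2 arrays each, of sections cut from roots of seedlings of the ecotype Columbia. All of the seedlings, those of zones 1 and 4 included, grew for 5 days on 1X MS medium and spent the last 3 h before dissection on sulfur-deficient medium, so that no array in the comparison stands for a sulfur-sufficient root. Both zones thus share genotype, age and treatment and differ by label in position only. The labels do not say which end of the root zone 1 lies at or how long a section was. Nor do they say whether the 2 arrays of a zone came from separate sets of plants. The p-values below thus measure only the spread between arrays. The test took that spread from all 8 arrays, so zones 2 and 3 also enter the standard errors and p-values.

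A root lengthens from a meristem near its tip, where small cells divide, replicate their DNA and build many ribosomes. Cells that leave the meristem stop dividing, expand as their walls loosen and their vacuoles enlarge, and then differentiate: epidermal cells grow root hairs, the endodermis lays down a Casparian strip, and vascular cells form conducting tissue. Genes of proliferation and of differentiation are known to follow this course along the root. Whole sections were measured, so a higher signal from more cells of a type and one from more RNA per cell cannot be told apart in any result that follows.

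Expression was measured on Affymetrix ATH1 arrays as MAS5 signals, which are brightness values in arbitrary units on a linear scale. Of 22746 probe sets other than controls, the 13647 with a mean signal above 42.5 over the 8 arrays were tested with limma on log2 signals. A probe set was called at a Benjamini-Hochberg adjusted p under 0.05 and a difference of at least 2-fold. It was counted as bright where the higher of the means of zones 1 and 4 reached 250.03, the trimmed mean that all the arrays share. Zones are said not to overlap where both arrays of one lay above both of the other. The share of all probe sets without overlap is not given here. Most genes named with values were chosen for large differences, which favours it, so it describes single genes only. Gene names were available for part of the array: 13513 probe sets carry 1 gene, and 1535 loci have a symbol of their own beyond the locus number. The log2 signals of the replicate arrays correlated at 0.90 in zone 1 and 0.94 in zone 4 over the probe sets tested, and arrays of zone 1 with those of zone 4 at 0.69 to 0.77. The 3′ to 5′ signal ratio of the GAPDH control, a measure of RNA integrity and of amplification length, was 64.3 and 13.2 in zone 1 and 29.5 and 17.7 in zone 4, so that the zones overlapped. The labels name a two-cycle amplification.

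Zone 4 had 1427 probe sets called higher and 530 called lower than zone 1, which is 10.5% and 3.88% of those tested, or 14.3% together. Among the 6963 bright probe sets, 882 were higher and 501 lower, or 12.7% and 7.20%, together 19.9%. The bright probe sets that were higher had a median change of 4.49-fold, and 181 of them exceeded 16-fold, against a median of 2.92-fold and 1 probe set beyond 16-fold among those that were lower. With every array centred on its median the order of these medians turned, to 3.49-fold and 3.75-fold for the same probe sets, while 150 and 1 of them exceeded 16-fold. The split between the directions also depends on how the arrays are scaled. The arrays of zone 4 had median signals of 75.3 and 79.6 and those of zone 1 had 62.6 and 57.8, and the median of the log2 differences went from 0.00 to -0.36 over the probe sets in the test once every array was centred on its median. After centring, 991 probe sets were higher and 1458 lower, 580 and 1230 of them bright, so that 72.9% of the calls were upward before centring and 40.5% after it. The 530 lower calls and 991 of the 1427 higher calls were made under both scalings. The calls also rested on having both arrays of zone 4. Without replicate 1 of zone 4 the counts were 612 higher and 58 lower, and without replicate 2 they were 389 and 25.

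**Figure D1:**
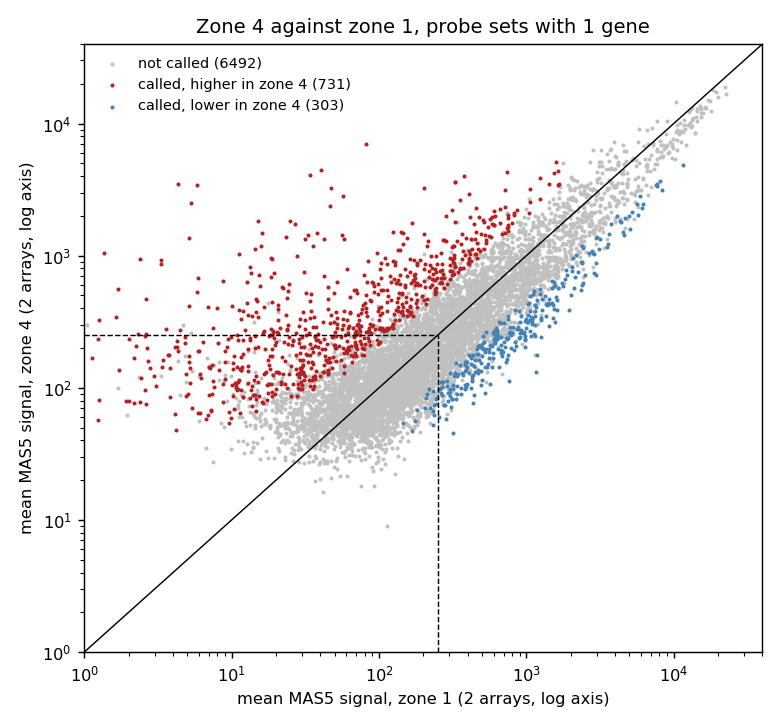
Mean MAS5 signal in zone 4 (vertical) against zone 1 (horizontal), both on log axes in arbitrary units, for the tested probe sets with 1 gene. Red points were called higher in zone 4 (731), blue points lower (303) and grey points neither; the solid line marks equal signals and the dashed lines the signal of 250.03 that defines bright. The red points fan out where zone 1 is dim, and the blue points lie in a narrow band below the line.

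Genes of the cell wall were called higher in zone 4 in several families. Counts of list members here and below stand beside 10.5% called higher and 3.88% called lower over all probe sets tested. Of 18 tested xyloglucan endotransglucosylases and expansins, which cut and rejoin or loosen the wall's polysaccharides, 9 passed as higher and no member as lower. The list's median log2 difference was 2.02 (1.65 after centring), beside 0.00 for every probe set in the test. XTH21 (AT2G18800) gave 20.6 and 6.11 in zone 1 and 842 and 798 in zone 4. Its zones did not overlap, and its log2 difference was 6.19 ± 0.66 (SE, adjusted p = 0.00048), or 4.76 when dim signals were raised to the 40th percentile of each array. XTH18 rose from 158 and 48.2 to 839 and 924, by 3.34 ± 0.48 on the log2 scale (adjusted p = 0.00198). The other 7 that rose were EXPA7, EXPA18, EXPA8, EXLA1, EXLA2, EXLA3 and XTH16, by 1.93 to 5.49 on the same scale. The root hair expansins among them are described below.

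The trichome birefringence-like proteins, a family whose studied members O-acetylate wall polysaccharides, showed 8 higher among 18 tested and no lower call, with a median of 0.99 (0.62 centred). TBL38 (AT1G29050) had signals of 1.13 and 5.47 in zone 1 and 572 and 1174 in zone 4. TBL21 (AT5G15890) had 1.22 and 5.92 in zone 1 and 332 and 226 in zone 4. Both genes were near the lowest signals of the array in zone 1 and bright in zone 4, with log2 differences of 8.37 ± 0.84 and 6.67 ± 0.74 (adjusted p = 0.000346 and 0.000518), or 4.76 and 3.18 with dim signals raised. TBL37 rose by 2.05 ± 0.42 from an already high zone 1 signal of 317 and 172. TBL41 rose by 3.40 ± 0.87, with zone 4 signals of 111 and 537. The call was lost without replicate 2 of zone 4 (difference 2.26) and without replicate 2 of zone 1 (2.22). TBL19, TBL30, TBL34 and AT2G31110 completed the 8, with zone 4 means under the bright level.

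Further wall lists held some higher members. The endoglucanase GH9C1 (AT1G48930), which is known from growing root hairs, gave 17.8 and 11.4 in zone 1 and 208 and 730.1 in zone 4, a log2 difference of 4.77 ± 0.66 (adjusted p = 0.00169), or 3.69 with dim signals raised. It was the 1 of 8 GH9 genes called, or 12.5% beside 10.5% called higher over all probe sets tested. GH9B13, with 1540.0 and 550.3 in zone 1 and 3071 and 2314 in zone 4, did not pass (adjusted p = 0.0737), nor did GH9B6, whose zone 1 arrays read 4.47 and 349. The extensin HRGP1, a hydroxyproline-rich wall glycoprotein, rose from 41.7 and 26.2 to 289 and 613, by 3.67 ± 0.48. Of 13 genes of cellulose and lignin formation, 4 were higher and none lower. CSLD2, a synthase needed for tip growth of root hairs, read 594 and 510.5 in zone 1 and 1933 and 1386 in zone 4 (log2 difference 1.57 ± 0.32, adjusted p = 0.0104). CSLC04, which makes the xyloglucan backbone, rose by 1.65 ± 0.37, and HCT, an enzyme of lignin precursor synthesis, by 1.97 ± 0.51. CSLA03 was also called, at a zone 4 mean of 239 against 13.3 in zone 1. COB, which orients cellulose microfibrils, had overlapping signals of 312 and 725 in zone 1 and 812 and 716 in zone 4. Of the class III peroxidases, the gene tables used here name or describe 5 tested ones, so that the list does not cover the family. AT5G66390, annotated as peroxidase 72, was the 1 called, with 1.35 and 1.35 in zone 1 and 147 and 1957 in zone 4, a log2 difference of 8.63 ± 1.86, or 4.15 with dim signals raised. The 2 pectin methylesterase genes tested, PMEPCRF and ATPMEPCRB, were both higher, at zone 4 means of 139 and 91.4. Of the 26 wall genes called in these lists, 9 kept the call without replicate 2 of zone 4, 12 without replicate 1 of zone 4, and 21 to 24 without any other array. XTH18, XTH21, TBL21, TBL38, GH9C1 and HRGP1 kept it in all 8 of these fits.

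The 2 root hair markers matched by name were higher in zone 4 and varied there. Markers were matched by symbol or synonym, so those without a matched name are not covered. These 2 markers, the expansins EXPA7 (AT1G12560) and EXPA18 (AT1G62980), were both called. EXPA7 had 17.4 and 4.89 in zone 1 and 164 and 619 in zone 4, with a log2 difference of 5.11 ± 0.81 (adjusted p = 0.00318). EXPA18 had 26.9 and 3.61 in zone 1 and 154 and 1268 in zone 4, with 5.49 ± 1.05 (adjusted p = 0.00811). The zones did not overlap for either gene, and replicate 2 of zone 4 was several times brighter than replicate 1 for both. With dim signals raised the differences were 3.40 and 3.87. Without replicate 2 of zone 4 and with dim signals as deposited they were 4.15 and 3.96 and neither passed the test. Of the 882 bright probe sets that were higher in zone 4, 138 were at least 2-fold brighter in replicate 2 than in replicate 1 of that zone and 18 the reverse. Among the 501 bright probe sets that were lower, the same counts were 0 and 8. The split over all bright probe sets was not counted, so the 138 cannot be called particular to the higher genes. What set the 138 apart was not tested.

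Secreted peptides and surface proteins were the next group. LCR68 (AT2G02130), a small cysteine-rich protein of the defensin type, was bright in zone 4, at 41.7 and 52.8 in zone 1 and 2543 and 3994 in zone 4. The log2 difference was 6.09 ± 0.46 (adjusted p = 9.47e-05), and its neighbour in name, LCR69, rose by 5.97 ± 0.92 (4.27 with dim signals raised) from 3.22 and 28 to 615 and 573. PDF2.5, also of the defensin list, was at 2418 and 1391 in zone 1 and 1098 and 628 in zone 4 and did not pass (log2 difference -1.14 ± 0.40, adjusted p = 0.0778). The 2 LCR genes were those called among 4 of the list that were tested. Of 7 RALF-like and CLE peptides, signals that restrain cell growth or steer stem cell fate, 3 were higher. RALFL32 read 129 and 139 in zone 1 and 814 and 1387 in zone 4 (2.99 ± 0.45, adjusted p = 0.00234) and RALFL33 575 and 385 in zone 1 and 2031 and 1891 in zone 4 (2.06 ± 0.42, adjusted p = 0.0104), while RALFL27 reached a mean of 190.3 from 5.96. RALFL34 had lower signals in zone 4, 1213 and 1044 against 1609 and 1975, without passing. The subtilase SBT4.12 (AT5G59090), a secreted protease, rose from 97.6 and 307 to 3288 and 3232, by 4.23 ± 0.49 (adjusted p = 0.000603). It was the 1 called among 5 subtilases.

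Tetraspanins, small membrane proteins that organise surface domains, had 4 of 7 tested members higher and none lower (median 1.68, or 1.32 centred). TET6 gave 72 and 70.2 in zone 1 and 244 and 358 in zone 4, TET2 gave 74.3 and 71.3 in zone 1 and 217 and 345 in zone 4 and TET8 gave 906 and 307 in zone 1 and 1439 and 1984 in zone 4. Their log2 differences were 2.06 ± 0.38, 1.91 ± 0.44 and 1.68 ± 0.48, and TET5 was the other member called. The TET8 call was lost in 7 of the 8 fits that left out an array. GSO1 (AT4G20140), a receptor kinase needed for an unbroken Casparian strip, was the 1 endodermis marker matched by name. It had 43.6 and 23.6 in zone 1 and 148 and 372 in zone 4. Its log2 difference was 2.87 ± 0.71 (adjusted p = 0.0243). The difference was 2.21 without replicate 2 of zone 4 and 2.43 without replicate 2 of zone 1, and not called in either fit. The cortex marker AT1G62500 had 109 and 83.1 in zone 1 and 203 and 158 in zone 4 and did not pass (adjusted p = 0.274). Of the 12 genes called in the lists of peptides and surface proteins, 6 and 7 kept the call without replicates 2 and 1 of zone 4. LCR68, LCR69, RALFL32 and SBT4.12 kept it without any 1 array.

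**Figure D2:**
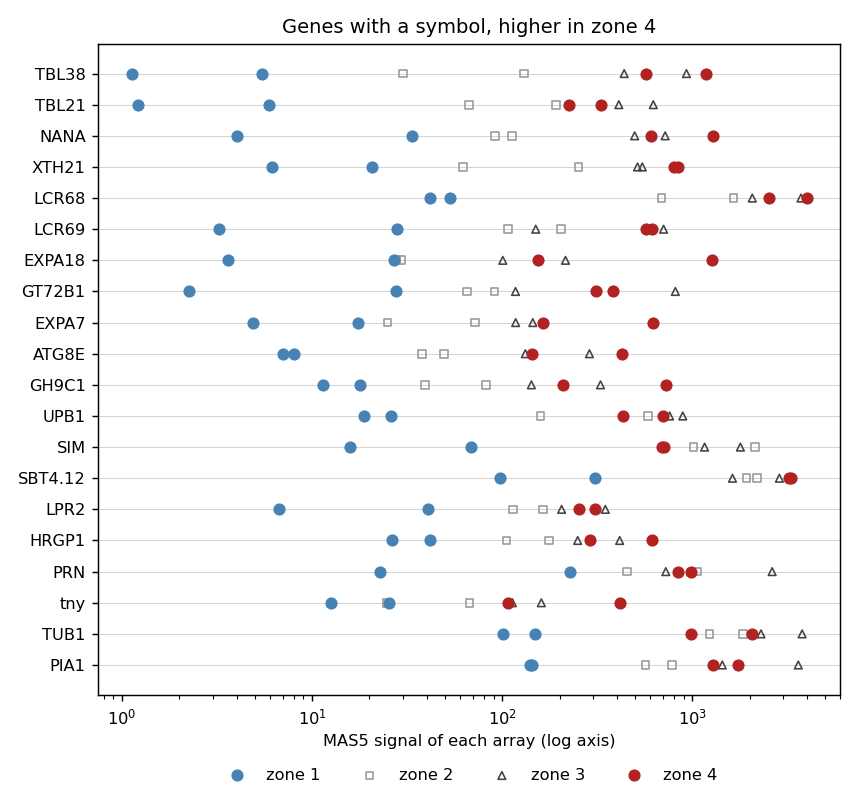
MAS5 signal of each of the 8 arrays (horizontal, log axis, arbitrary units) for the 20 genes with a symbol that had the largest log2 increase in zone 4 among bright genes whose zones 1 and 4 did not overlap. Filled blue points are the 2 arrays of zone 1, filled red points those of zone 4, open squares zone 2 and open triangles zone 3. By the choice of genes the red points lie right of the blue ones in every row. In most rows the zone 3 arrays lie near those of zone 4.

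Further genes with a symbol that rose had various roles. SIM (AT5G04470), the inhibitor of cyclin-dependent kinases that drives cells from mitosis into endoreduplication in leaf hairs, had 15.8 and 68.8 in zone 1 and 692 and 709 in zone 4. Its log2 difference was 4.41 ± 0.61 (adjusted p = 0.00163), and the means of zones 2 and 3, 1571 and 1474, were higher still. It was the 1 gene called among 15 of cell cycle control and cytokinesis, or 6.67% beside 10.5% called higher over all probe sets tested. UPB1 (AT2G47270), a bHLH factor that represses peroxidase genes and sets where root cells begin to differentiate, rose from 25.8 and 18.8 to 703 and 433, by 4.64 ± 0.54 (adjusted p = 0.000668). Both SIM and UPB1 kept their calls in all 8 fits that left out an array. The multicopper oxidase LPR2, which takes part in the arrest of root growth on low phosphate, gave 40.8 and 6.66 in zone 1 and 254 and 307 in zone 4, a difference of 4.08 ± 0.70, or 3.07 with dim signals raised. The AP2-type factor tny (TINY) gave 25.5 and 12.6 in zone 1 and 107 and 417 in zone 4, a difference of 3.56 ± 0.73 that was not called without replicate 2 of zone 4 (2.58). PRN, a pirin that binds the G-protein alpha subunit, had zone 1 arrays far apart at 228 and 22.8, zone 4 arrays at 980.3 and 839.5 and a log2 difference of 3.65 ± 0.92 (adjusted p = 0.0259). The phosphatase PIA1 rose from 143 and 139.5 to 1289 and 1729, by 3.40 ± 0.42. The aspartic protease NANA rose by 6.25 ± 0.78, from 4.04 and 33.3 to 608 and 1277, or by 4.72 with dim signals raised.

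The lists of transcription factors were matched by symbol and description and miss members named otherwise, among them UPB1 and tny. The list of WRKY, NAC, MYB, bHLH, ERF and bZIP factors had 2 of 26 tested genes higher, bHLH115 and bHLH121, or 7.69% beside 10.5% over all probe sets tested. No gene of 10 in the list of homeodomain, GRAS, AP2 and MADS regulators was called by limma. Of the 10, 0 had an unadjusted p under 0.05, beside 30.8% of all probe sets tested. WRKY53 had 87.6 and 51 in zone 1 and 289 and 216 in zone 4, with an adjusted p of 0.0562.

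Among cytoskeletal genes, 1 of 8 tubulins and actins was called, or 12.5% beside 10.5% called higher over all probe sets tested. TUB1 (AT1G75780), a beta-tubulin, had 101 and 149 in zone 1 and 2056 and 985 in zone 4, with a log2 difference of 3.53 ± 0.43 (adjusted p = 0.000797). The other beta-tubulins went in both directions without passing, TUB6 with 567 and 829 in zone 1 and 1606 and 1102 in zone 4 and TUB7 with 1517 and 1047 in zone 1 and 737 and 649 in zone 4. SP1L4, of the SPIRAL1 family that binds cortical microtubules, rose from 48.8 and 66 to 287 and 376, by 2.53 ± 0.46. SP1L3 and SPR1 of the same family had differences of 0.92 ± 0.34 and 0.94 ± 0.38 and were not called. IQD19, IQD23, TRM26 and NET2D, which bind microtubules or actin, were called at zone 4 means of 89.0 to 159.9, under the bright level. TUB1 and SIM were the bright genes of this kind that kept the call without either array of zone 4.

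Several ATG8 genes of autophagy were higher. Autophagy encloses cytoplasm in membranes that carry lipid-bound ATG8 and delivers it to the vacuole. Of 10 tested members 5 were higher, none was lower and all 10 had positive differences, at a median of 1.09 (0.73 centred). The 5 were all ATG8 genes. ATG8E (AT2G45170) gave 8.07 and 6.99 in zone 1 and 144 and 425 in zone 4, a log2 difference of 5.04 ± 0.63 (adjusted p = 0.0009), or 3.03 with dim signals raised. ATG8H gave 81.3 and 125 in zone 1 and 467 and 633 in zone 4 (2.43 ± 0.39), ATG8F gave 202 and 142 in zone 1 and 719 and 1137 in zone 4 (2.42 ± 0.41) and APG8A gave 116 and 89.2 in zone 1 and 356 and 460.1 in zone 4 (1.99 ± 0.38). The zones did not overlap for any of these 4, the bright members with the largest differences, and ATG8E and ATG8H kept the call without any 1 array. ATG8D was the other member called. ATG8 genes are similar in sequence, and cross-hybridisation between them was not tested.

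Some genes of protein turnover were higher too. The U-box ubiquitin ligases PUB19 and PUB22, known from stress and immune signalling, rose from 25.7 and 45.5 to 246 and 335 and from 143 and 128 to 473 and 834, by 3.07 ± 0.38 and 2.22 ± 0.35. With PUB24 they were 3 of 7 tested. Both bright ones kept the call without any 1 array. The vacuolar protease GAMMA-VPE rose by 1.72 ± 0.41, from 123 and 103 to 282 and 483. Of 12 ubiquitin-conjugating enzymes, UBC16 and UBC29 were higher, both dim, or 16.7% beside 10.5% over all probe sets tested. The median of the list was 0.16, which turned to -0.20 after centring.

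Transporters and vacuolar genes formed a further group. All 4 vacuolar proton pump genes tested had positive differences and 2 were called. VHA-A3 and VHA-A2, the tonoplast subunits of the proton pump that acidifies the vacuole, had 722 and 781 in zone 1 and 1721 and 2166 in zone 4 and 415 and 402 in zone 1 and 905 and 1008 in zone 4. Their log2 differences were 1.36 ± 0.28 and 1.22 ± 0.29 (adjusted p = 0.0112 and 0.0201), and neither was called after centring. Of 6 sugar transporters 3 were higher and none lower: TMT1 and SWEET17, both of the tonoplast, at 1.67 ± 0.34 and 1.81 ± 0.43, and SWEET16. TMT1 rose from 264 and 274 to 1037 and 708. GTR1 (AT3G47960), a nitrate transporter family member that imports glucosinolates, gave 128 and 92.9 in zone 1 and 712 and 1205 in zone 4, a log2 difference of 3.09 ± 0.37 (adjusted p = 0.000735) that kept its call without any 1 array. It was called with AT2G26690, AT3G21670 and AT1G72125 among 5 tested genes for nitrate, phosphate, potassium and ammonium transport. In the list of glucosinolate and ER body genes GTR1 was the 1 called among 7, or 14.3% beside 10.5% over all probe sets tested. All 7 had positive differences. JAL33 of that list had 206 and 581 in zone 1 and 969.7 and 1249 in zone 4 and did not pass (adjusted p = 0.0871).

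Since all roots were on low sulfur, every gene of the sulfur list is given. The list holds 8 loci matched by name and does not cover the low-sulfur response. The 7 tested genes of sulfate assimilation and the low-sulfur response included 2 that were higher and 0 that were lower. Their median log2 difference was 0.07, or -0.30 centred. The ATP sulfurylase APS4 (AT5G43780), which activates sulfate, had 156 and 234 in zone 1 and 345 and 639 in zone 4, a log2 difference of 1.30 ± 0.38 (adjusted p = 0.0442). MGL, the methionine gamma-lyase that breaks down methionine, had 37.4 and 63.6 in zone 1 and 134 and 285 in zone 4, a difference of 2.00 ± 0.54 (adjusted p = 0.0348), and higher means of 548 and 346 in zones 2 and 3. Neither kept the call after centring, or on leaving out either array of zone 4, either array of zone 2 or replicate 1 of zone 1. APS4 also lost it without either array of zone 3. A second ATP sulfurylase, APS3, had 604 and 349 in zone 1 and 273 and 309.7 in zone 4, lower in zone 4 on both arrays but not called (-0.66 ± 0.37, adjusted p = 0.253). Sulfite reductase SIR had 1879 and 1299 in zone 1 and 1146 and 1144 in zone 4, and the cystathionine beta-lyase CBL had 1696 and 1079 in zone 1 and 1483 and 1354 in zone 4. APK1A, which phosphorylates activated sulfate, had overlapping values of 214 and 65.9 in zone 1 and 188 and 210.3 in zone 4, and BGLU28 had 34.9 and 309 in zone 1 and 206 and 9.61 in zone 4. OASA2, a cysteine synthase, was too dim to be tested. Sulfate transporters, APS reductases and LSU genes are not analysed here.

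Enzymes of conjugation and detoxification included a few that were higher. Of 30 tested UDP-glycosyltransferases 4 were higher, or 13.3% beside 10.5% over all probe sets tested, and none was lower. Of the 30, 26 had positive differences, and the median was 0.74 (0.37 centred). GT72B1 (AT4G01070), which glycosylates monolignols and foreign phenols, had 27.7 and 2.24 in zone 1 and 311 and 381 in zone 4, a difference of 5.45 ± 1.07 (adjusted p = 0.00928), or 3.51 with dim signals raised. UGT71C4 rose by 1.50 ± 0.42, and the dimmer UGT71C1 and UGT71C2 were also called. Of 8 glutathione transferases 3 were higher, GSTU27 by 1.30 ± 0.39 and GSTU28 and GSTL3 at dimmer signals. Of 6 cytochromes P450 3 were higher, among them CYP84A4 with 29.9 and 24.9 in zone 1 and 381 and 142 in zone 4 (3.09 ± 0.64). Of the 10 calls in these lists, 1 was kept without replicate 2 of zone 4, 3 without replicate 1 of zone 4, and 5 without replicate 1 of zone 1.

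Genes of cold and dehydration responses were higher in 3 of 8 cases, with a median of 0.98 (0.61 centred). The dehydrin LTI30 had 455 and 249 in zone 1 and 2019 and 3237 in zone 4 and the dehydrin COR47 341 and 1131 in zone 1 and 2473 and 6178 in zone 4, with log2 differences of 2.92 ± 0.55 and 2.65 ± 0.66 (adjusted p = 0.00762 and 0.0249). Their zones did not overlap, and replicate 2 of zone 4 was the brighter array for both. The third was AT2G46140, at 1.77 ± 0.33. The temperature-induced lipocalin TIL rose by 2.08 ± 0.53, from 85.1 and 146 to 340.3 and 648. It and THX were the 2 called among 24 thioredoxins, glutaredoxins and antioxidant enzymes, a list whose median of 0.16 turned to -0.21 after centring. All 6 genes called in these lists and among the calmodulin-like proteins (CML42) lost the call without replicate 2 of zone 4.

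In energy metabolism the differences were small. Of 11 genes of the citric acid cycle and pyruvate dehydrogenase 1 was called, or 9.09% beside 10.5% called higher over all probe sets tested. It was SDH2-1, the iron-sulfur subunit of succinate dehydrogenase, which rose from 1026 and 1432 to 2176 and 3149.9, by 1.11 ± 0.32 (adjusted p = 0.0422). The isocitrate dehydrogenase subunits IDH-V and IDH-VI had positive differences of 0.84 ± 0.26 and 0.74 ± 0.31 and did not pass. None of 11 glycolytic and related genes was called, and triose phosphate isomerase TPI, bright in both zones, had 5778 and 7374 in zone 1 and 9197 and 8645 in zone 4. ALDH2C4, an aldehyde dehydrogenase of ferulate synthesis, was the 1 of 7 called (14.3%), at 1.27 ± 0.32. None of these calls was kept after centring.

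Nuclear photosynthesis genes, which serve here as a check for green tissue, included some that were higher in zone 4, at low signals. The gene names gave 12, of which 9 could be tested. Of these, 4 were higher and 0 lower, and the median was 2.18 (1.82 centred). The light-harvesting protein LHCB4.1 had 73.8 and 29.8 in zone 1 and 285 and 281 in zone 4 and the photosystem II subunit PSBW 114 and 34.5 in zone 1 and 341 and 197 in zone 4. Their log2 differences were 2.59 ± 0.49 and 2.05 ± 0.59 (adjusted p = 0.00787 and 0.0425), and all 4 calls, LHCB4.2 and ATPC1 being the others, were lost on leaving out either array of zone 4. The signals of the 12 genes summed to 879 and 432 in zone 1 and 1697 and 1571 in zone 4. The highest zone 4 mean of the 12 was that of LHCB4.1, 283, and the Rubisco activase RCA reached 87.7. None was listed at 0. The part of green cells in any other difference was not tested.

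**Figure D3:**
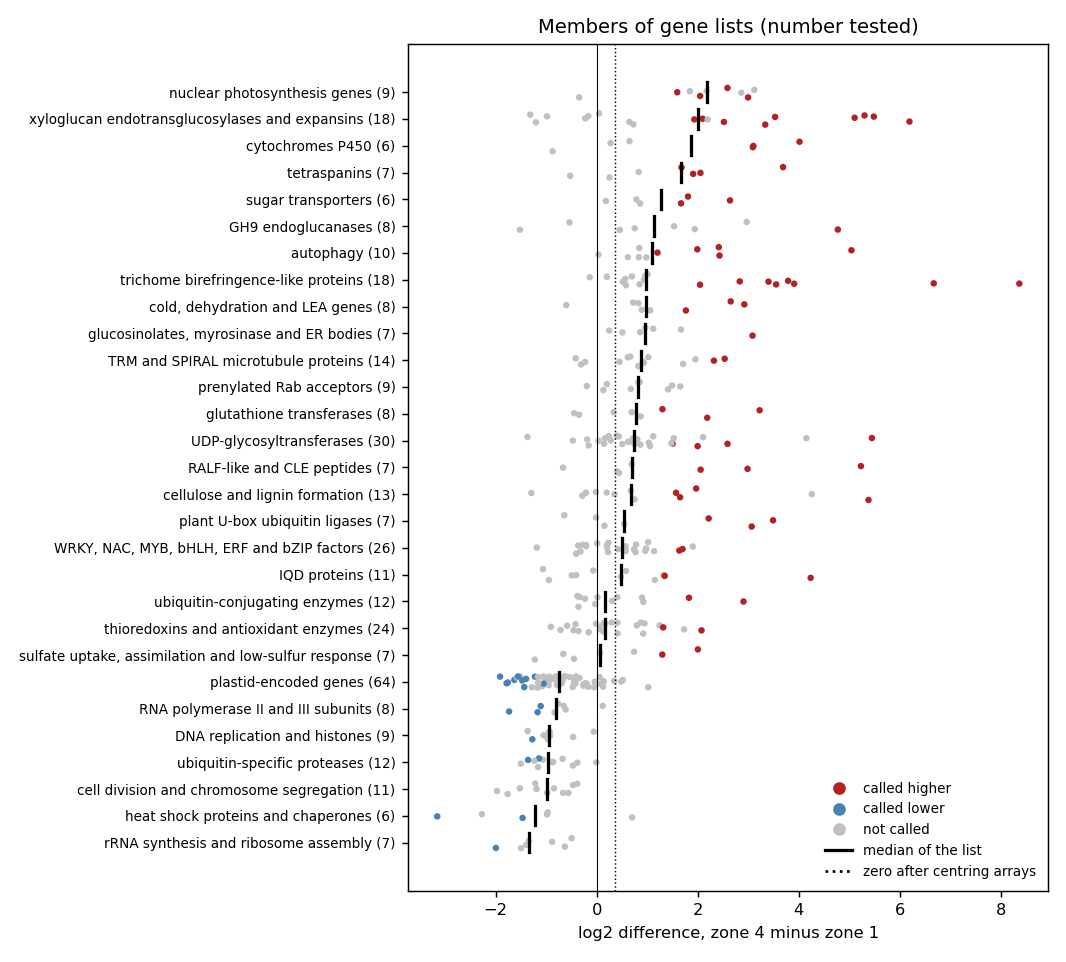
Log2 difference of zone 4 minus zone 1 (horizontal) for each tested member of 29 gene lists (rows, number of members tested in brackets), with red points called higher, blue points called lower and grey points not called. Lists with at least 6 tested members were drawn if at least 2 members were called or the median was at least 0.8 in size; the black bars are medians, and the dotted line marks where zero lies after centring the arrays. Medians run from 2.18 for nuclear photosynthesis genes to -1.34 for ribosome assembly.

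Of the 530 probe sets that were lower in zone 4, 501 were bright. Among these, 286 carry 1 gene and 36 a symbol of their own. Of those with 1 gene, Hsp70-2 (AT5G02490), a cytosolic chaperone of the heat shock 70 family, fell furthest. It had 1086 and 1236 in zone 1 and 113 and 151 in zone 4, a log2 difference of -3.15 ± 0.35 (adjusted p = 0.000518), and kept the call without any 1 array. The plastid chaperonin Cpn60beta2 fell from 6693 and 4707 to 2097 and 1974, by 1.46 ± 0.35 on the log2 scale (adjusted p = 0.0215), and Cpn60beta3 had 4123 and 2730.3 in zone 1 and 1546 and 1905 in zone 4 without passing (adjusted p = 0.0861). Hsp70-2 and Cpn60beta2 were those called among 6 tested chaperones, a list with a median of -1.22.

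Some genes of ribosome formation and RNA polymerases were lower. All 7 genes matched by name to rRNA synthesis and ribosome assembly were bright and had negative differences, with a median of -1.34, and 1 passed. The list does not cover the group, since genes without a matched name were left out. YAO (AT4G05410), a nucleolar protein needed in embryo and gametophyte, had 1989 and 2021 in zone 1 and 509 and 499 in zone 4, a log2 difference of -1.99 ± 0.39 (adjusted p = 0.00924). The 2 largest subunits of RNA polymerase I, NRPA1 and NRPA2, which transcribe rRNA, had 498 and 488 in zone 1 and 204 and 149.8 in zone 4 and 1892 and 1227 in zone 1 and 465 and 722 in zone 4. The zones did not overlap for either, with differences of -1.49 ± 0.51 and -1.39 ± 0.46, but the adjusted p-values were 0.0727 and 0.0686. Of 8 subunits of RNA polymerases II and III 3 were lower and none higher (median -0.80). NRPC2 (AT5G45140), the second-largest subunit of RNA polymerase III, which makes tRNA and 5S rRNA, gave 789 and 1043 in zone 1 and 279 and 267 in zone 4, a difference of -1.73 ± 0.33 (adjusted p = 0.00848). NRPB7 and NRPB9B of RNA polymerase II fell by 1.17 ± 0.32 and 1.11 ± 0.31. The initiation factor EIF4A-2 fell from 2387 and 3670.5 to 1499 and 1293, by 1.09 ± 0.31 (adjusted p = 0.0411). The 2 cytosolic ribosomal protein genes with a name, PGY1 and AT1G77750, had negative differences of -0.68 ± 0.27 and -0.49 ± 0.32 and did not pass. Of the 5 polymerase, assembly and translation genes called, none kept the call on leaving out either array of zone 4, and all 5 did after centring.

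PYRB (AT3G20330), aspartate carbamoyltransferase, the enzyme that commits carbon to pyrimidine nucleotides, had 889 and 1082 in zone 1 and 268 and 199 in zone 4. The log2 difference was -2.09 ± 0.35 (adjusted p = 0.00446). RBL (AT3G55510), known from the termination of floral meristems, had 1237 and 1068 in zone 1 and 256 and 234 in zone 4, a difference of -2.23 ± 0.42 (adjusted p = 0.00762). ATO, a splicing factor of the SF3a type, fell by 1.89 ± 0.46, and the nuclear pore proteins NUP1 and SEH1H by 1.62 ± 0.47 and 1.51 ± 0.43. PPR596, a mitochondrial pentatricopeptide protein, was bright in zone 1 at 4487 and 4571 and stood at 1765 and 1281 in zone 4 (-1.59 ± 0.41, adjusted p = 0.0291). ZCW7 fell by 1.54 ± 0.36. The zones did not overlap for these genes, which was a condition for naming them.

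Division genes had lower signals in zone 4 that did not pass the test. All 11 tested genes of cell division and chromosome segregation had negative differences, with a median of -0.98, and none was called by limma, though 6 had an unadjusted p under 0.05, as had 30.8% of all probe sets tested. After centring, which lowers every difference by 0.36, 5 were called. KINESIN-12B, a motor of the phragmoplast that builds the new cell wall, had 389 and 194 in zone 1 and 115 and 80.3 in zone 4, and its adjusted p was 0.112. The mitotic chromatin proteins 3xHMG-box2 and 3xHMG-box1 had 1383 and 1257 in zone 1 and 702 and 461 in zone 4 and 547 and 291 in zone 1 and 190.5 and 161 in zone 4. The spindle checkpoint protein BUB3.1 had 1126 and 1035 in zone 1 and 652 and 462 in zone 4, with an adjusted p of 0.0791. In each of these 4 genes both arrays of zone 4 lay below both of zone 1, and the zone 3 means, 46.4, 115, 27.1 and 190.0, were lower again. The 4 were named for the largest differences among the 6 bright members of the list, which favours such a separation. AUR2 of the same list overlapped, at 1383 and 581 in zone 1 and 834 and 569 in zone 4 (log2 difference -0.38).

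DNA replication genes and histones had negative differences in all 9 cases (median -0.95), and 1 was called. The histone H2B gene HTB2 had 789 and 465 in zone 1 and 279.9 and 225 in zone 4, a log2 difference of -1.27 ± 0.37 (adjusted p = 0.0432). HTB1 had 6774 and 2548 in zone 1 and 1686 and 1546 in zone 4 (adjusted p = 0.0522), and the primase subunit POLA3 had 1249.7 and 519 in zone 1 and 399 and 436 in zone 4 (adjusted p = 0.157). Histone genes are near-identical copies, so their probe sets may share signal. Of 18 chromatin remodelling and histone modification genes 16 were negative and none was called (median -0.51). By limma 2 had an unadjusted p under 0.05, beside 30.8% of all probe sets tested. CHR17, a remodelling ATPase, had 1170.0 and 1021 in zone 1 and 566 and 682 in zone 4. Among 12 ubiquitin-specific proteases all were negative (median -0.97) and 2 were called: UBP23, with 2918 and 2386 in zone 1 and 910.1 and 1168 in zone 4 (-1.36 ± 0.34), and UBP24, with 714 and 794 in zone 1 and 283 and 413 in zone 4 (-1.14 ± 0.34). The UBP24 call, at an adjusted p of 0.0497, was lost in every fit that left out an array.

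The 1 testable marker of the root stem cell niche among those matched by name did not separate the zones. BBM (AT5G17430), an AP2 factor that acts with PLETHORA proteins in the meristem, had overlapping signals of 601 and 149 in zone 1 and 156 and 235 in zone 4, with an adjusted p of 0.707. It was at means of 8.18 and 6.21 in zones 2 and 3. The receptor kinase CR4 of the same list and the lateral root genes LBD16, LBD29 and PUCHI were too dim to be tested, with zone 4 signals between 2.83 and 80.7.

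Plastid-encoded genes formed the largest group of lower calls among the lists. Of 69 genes of the plastid genome 64 were tested, 10 of which were lower and 0 higher, and the median was -0.75 (-1.11 centred). That is 15.6% of them, beside 3.88% of all probe sets tested. Of the 10, 5 were ribosomal protein genes: rps3, rpl16, rpl22, rpl32 and rpl36. The gene rps3 had 3797 and 1940.3 in zone 1 and 606 and 861 in zone 4, a log2 difference of -1.91 ± 0.39 (adjusted p = 0.0106). The gene rpl16 had 3399 and 2842 in zone 1 and 1023 and 1227 in zone 4 and rpl22 437 and 754 in zone 1 and 162 and 173 in zone 4, with differences of -1.47 ± 0.32 and -1.78 ± 0.35. The others were psbK of photosystem II (-1.76 ± 0.38), cemA of the envelope (-1.63 ± 0.35), ycf3 for photosystem I assembly (-1.55 ± 0.33), the polymerase subunit rpoA and accD of fatty acid synthesis. The zones did not overlap for any of the 6 genes with a value here, of which rpl16 and ycf3 were named on that condition. Plastid genes are transcribed in shared units, so they are not independent of each other, and 1 or none of the 10 calls was kept without an array of zone 4. The summed signal of the 69 genes was 103827 and 54883 in zone 1 and 47632 and 45590 in zone 4, so that replicate 1 of zone 1 stood far above the other 3 arrays. Of the 10 calls, 6 were kept without that array. The nuclear gene FTSZ2-1, for the ring that divides plastids, fell from 558 and 674 to 156 and 307, by 1.49 ± 0.41 (adjusted p = 0.0364).

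Lower calls reached the wall and metabolism lists in few genes. The SKU5-similar gene sks15, of a family of wall and membrane proteins related to multicopper oxidases, had 2140.2 and 3761 in zone 1 and 1067 and 694 in zone 4, a log2 difference of -1.72 ± 0.43 (adjusted p = 0.0264). Its relative sks16 had 1456 and 3407 in zone 1 and 939.7 and 431 in zone 4 and did not pass (adjusted p = 0.109), and SKU5 itself overlapped at 1496 and 461 in zone 1 and 890.2 and 1047 in zone 4. In the tetrapyrrole list AT-HF alone of 10 was called, at 812 and 1262 in zone 1 and 439.9 and 442 in zone 4, and this gene is known as an enzyme of histidine synthesis. BIN4, a DNA topoisomerase VI component found through the brassinosteroid list, was also lower, at means of 220.04 in zone 1 and 97.3 in zone 4.

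**Figure D4:**
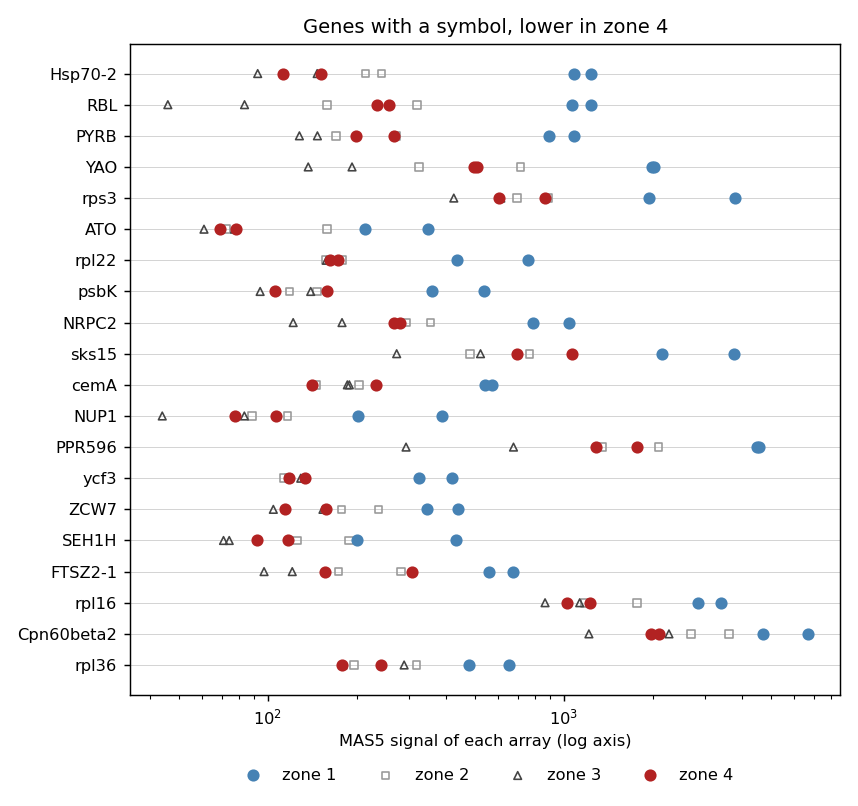
MAS5 signal of each of the 8 arrays (horizontal, log axis, arbitrary units) for the 20 genes with a symbol that had the largest log2 decrease in zone 4 among bright genes whose zones 1 and 4 did not overlap, drawn with the same marks as the plot of genes that were higher. By the choice of genes the red points of zone 4 lie left of the blue points of zone 1 in every row. For YAO, RBL and PPR596 the zone 3 arrays lie further left.

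The largest increases among probe sets with 1 gene belonged mostly to genes known here by locus number alone. AT5G44020 had 6.06 and 2.63 in zone 1 and 3811 and 3171 in zone 4, a log2 difference of 9.77 ± 0.52 (adjusted p = 1.46e-05), or 6.85 with dim signals raised. AT5G17820 had 9.17 and 2.4 in zone 1 and 2282 and 4586 in zone 4, a difference of 9.43 ± 0.96, or 6.74 with dim signals raised. AT2G37130 had 26.8 and 3.36 in zone 1 and 1716 and 1918 in zone 4, a difference of 7.58 ± 0.77, or 5.91 with dim signals raised. All 3 were under the 40th percentile of both zone 1 arrays and bright in zone 4. AT3G53980, AT1G51850, AT4G13580, AT3G28550, AT2G44300, AT4G26010 and AT3G05920 also rose, by 7.71 to 8.77, or 3.42 to 5.65 with dim signals raised. Their zone 1 signals were under the same percentile, so that the size and the order of these increases depend on how dim signals are treated. Of the 12 genes with the largest increase, TBL38 and AT5G66390 included, 11 kept the call without replicate 1 of zone 4 and 8 without replicate 2. AT4G13580 and AT4G26010 were far brighter on replicate 2 of zone 4, at 510.0 and 4503 and 193 and 2536.

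Among the genes that fell, AT3G10530 had 1404 and 976 in zone 1 and 194 and 158 in zone 4, a log2 difference of -2.74 ± 0.34 (adjusted p = 0.000868). AT3G15680 had 506 and 539 in zone 1 and 69.2 and 115 in zone 4, a difference of -2.55 ± 0.41 (adjusted p = 0.00334). These kept the call in all 8 fits that left out an array, as Hsp70-2 did. AT4G26600, AT5G54910, AT2G22100, AT2G34357, AT1G79150, AT5G66540, AT5G60990, AT3G21540 and AT5G27330 fell by 2.28 to 2.86 on the log2 scale. AT1G79150 was the brightest of them in zone 1, at 2066 and 1842, and stood at 343 and 429.7 in zone 4. Of the 12 genes with the largest decrease, 5 and 4 kept the call without replicates 1 and 2 of zone 4.

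Zones 2 and 3 place these differences within the series, and since the contrasts share the zone 1 arrays their values are given side by side without a test. Of the 882 bright probe sets higher in zone 4, 646 had a zone 2 mean and 842 a zone 3 mean at least 2-fold above the zone 1 mean. The zone 4 mean was the highest of the 4 zones for 356 of them and the zone 3 mean for 496, and 307 rose in the order of zones 1, 2, 3 and 4. In 71 cases zone 4 was at least 2-fold above zone 3, and in 60 cases the reverse. The 501 lower probe sets had their lowest mean in zone 3 in 421 cases and in zone 4 in 73, and 169 were at least 2-fold lower in zone 3 than in zone 4. Their median log2 difference from zone 1 was -1.35 in zone 2, -2.20 in zone 3 and -1.54 in zone 4. For the higher probe sets the medians were 1.52, 2.37 and 2.17. Zone 4 thus stood near zone 3 for the genes that were higher and between zones 1 and 3 for most of those that were lower.

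**Figure D5:**
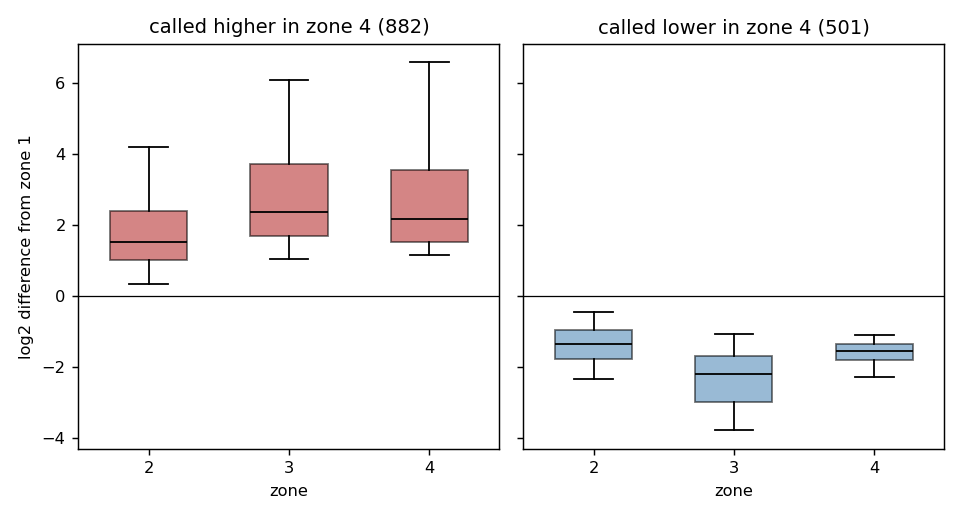
Log2 difference from zone 1 (vertical) in zones 2, 3 and 4 (horizontal) for the 882 bright probe sets called higher in zone 4 (left) and the 501 called lower (right). Boxes span the quartiles with the median as a line, and whiskers reach the 5th and 95th percentiles; the zone 4 values were used to choose the probe sets. The right panel has its lowest median, -2.20, in zone 3.

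Single genes show these courses. LCR68 had means of 47.2, 1167, 2896 and 3268 from zone 1 to zone 4, and SBT4.12 had 202, 2058, 2247 and 3259.8. TUB1 peaked in zone 3, with means of 125, 1539, 3038 and 1520.3. AT3G53980 was dim in zone 2 as well as in zone 1, with 2.4, 4.24, 483 and 940.3. Among the lower genes YAO had means of 2005, 519, 165 and 504, and PPR596 had 4529, 1715, 484 and 1523. Hsp70-2 had means of 1161, 228, 119.5 and 132. The course of the lower genes was thus not a steady fall with zone number.

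Several lists held no called member. Over the 23 such lists, those of division and chromatin included, limma gave 17 of 139 tested members an unadjusted p under 0.05, beside 4208 of the 13647 probe sets tested. These were genes of auxin signalling and transport (5 tested), jasmonate and wounding (3), ethylene (2), beta-glucosidases (7), myosins XI (3), exocyst subunits (6), ESCRT-III and related sorting proteins (11), alternative NAD(P)H dehydrogenases (4), DNA repair and recombination (13), Sm-like proteins (6), chloroplast NDH and RNA editing factors (10), glutamate receptors (3) and prenylated Rab acceptors (9), with the proteasome, acid phosphatase and receptor kinase lists at 1 tested member each. These lists hold only genes matched by name and do not cover their families. The receptor kinase GSO1, called higher above, is not in the receptor kinase list. Lists with a called member were left out of the 23, so 17 of 139 is low by selection. It cannot be compared with the share over all probe sets tested. The exocyst list turned from a median of 0.30 to -0.06 after centring. Of the ESCRT genes 9 of 11 had positive differences, and all 6 Sm-like genes had negative ones. Serine carboxypeptidase-like proteins had 1 of 16 higher, scpl40. No listed cytokinin gene and no listed cation/proton exchanger was bright enough to be tested.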

How the data were processed

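Total RNA of root sections was labelled after a two-cycle amplification and hybridised to Affymetrix ATH1 arrays, per the labels' protocols. The deposited intensity values are MAS5 signals, per the submitters' processing notes, whose version and scaling target the sources used here do not give. Every column of the table was used. Gene names came from the platform annotation, updated through RefSeq (TAIR10.1): of 13513 probe sets with 1 gene, 13436 matched a locus.

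After leaving out 64 control probe sets and the lowest 40% by mean signal, limma 3.58.1 (R 4.3.3) fitted log2 signals of all 8 arrays with 1 mean per zone and eBayes with a trend of variance on signal. The fit was tested on simulated data. The prior and residual degrees of freedom were 6.50 and 4, and 2 arrays per zone limit the precision. Members and lists were chosen with earlier results of these data known. Of 69 lists, matched by symbol or synonym, 34 and the rule for the 20 genes with a symbol were added after the annotation had been seen. Each list gave 1 probe set per locus, the brightest, and lists received counts and medians, with no test. Named genes were the 12 of largest difference per direction among bright, called, non-overlapping genes with 1 gene name. The 20 such genes with a symbol of their own were also named. So were up to 4 bright members per list with the largest difference, and all members of the sulfur and cell type marker lists. Where a list member under the bright level is named, it was chosen because it was called. Replicate numbers did not pair arrays of zones 1 and 4 (correlation of deviations -0.00), so no block was used. No sequence was used.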

Additional observations from a re-analysis of the deposited data

How the results depend on the processing

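Across the alternatives no called gene named by the rules changed direction. Members under the bright level that were named because they were called were not checked for this. Centring the arrays moved the bright higher calls to 580, all lower calls to 1458, bright lower calls to 1230 and lower list members to 62, from 882, 530, 501 and 23. That shift follows from the medians of the arrays. A prior variance without trend gave 587 bright higher, 256 lower, 220 bright lower and 9 lower list members, and the cause was not tested. With the replicate block, lower list members were 15, while the counts were 1322 higher and 405 lower, and the samples share only a number. Requiring a bright signal 2 times as high left 563 higher and 371 lower. Leaving out 1 array at a time gave 389 to 1393 higher and 25 to 593 lower probe sets, 303 to 852 and 23 to 535 bright ones, and 25 to 90 higher and 1 to 35 lower list members. The lowest values came without replicate 2 of zone 4, and without replicate 2 of zone 1 the lower calls were 317, bright lower calls 309 and lower list members 35. Other counts kept within 1.5 times of those reported under quantile normalization, other filters, an offset of 32, raised dim signals, a robust prior, no minimum fold and the arrays of zones 1 and 4 alone. The planned motif counts in promoters were not run. Dim zone 1 signals limit the size, not the direction, of the largest increases: of the 882 bright higher probe sets, 121 were under the 40th percentile on both zone 1 arrays, and 881 were called with dim signals raised.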

Other observations

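A set of bright genes had higher signals in zones 1 and 4 than in zones 2 and 3, a pattern that the comparison of zones 1 and 4 leaves out of view. Among the 6963 bright probe sets tested, 111 had all 4 arrays of zones 1 and 4 above all 4 of zones 2 and 3. Their mean difference was at least 4-fold. Of these 111, 8 were called between zones 1 and 4, beside 1383 (19.9%) of the 6963. The 111 were chosen for high signals in both zones, which bears on that count, so no result is read from it. The genes below were chosen after their values were seen, and the pattern was not tested. Of the 111, 62 carry 1 gene and 10 a symbol. BBM, the stem cell niche factor, had 601 and 149 in zone 1, 7.61 and 8.76 in zone 2, 1.6 and 10.8 in zone 3 and 156 and 235 in zone 4. AUR2, an Aurora kinase of mitosis, had 1383 and 581, 314 and 226, 74.6 and 104 and 834 and 569 in the same order. The mitotic proteins 3xHMG-box1 and 3xHMG-box2 were also among the 10, as was the bHLH factor SPT, which is known from carpel growth and had 424 and 271, 131 and 134, 17.1 and 83.4 and 307 and 268. The glutathione transferase ATGSTF13 showed the same pattern, with 1116 and 1229.7 in zone 1, 107 and 83.4 in zone 2, 23.5 and 60.6 in zone 3 and 965 and 880.2 in zone 4. The others with a symbol were ATLP-1, sks16, hemb2 and IQD16. The reverse pattern, with zones 2 and 3 above, held for 31 probe sets, counted as bright in any zone.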
